A study of Gallus gallus with 30 samples.

Results

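The values described here come from 6 of the 30 libraries of the series, the 3 right otocysts cultured for 24 h with the γ-secretase inhibitor LY411575 and, from the same 3 embryos, the left otocysts cultured with DMSO. The otocyst is the epithelial vesicle that forms the inner ear. In the wider study Notch activity was raised in chicken otocysts by electroporating the intracellular domain of NOTCH1, or lowered with LY411575 for 6 h or 24 h, and the transcriptome of each otocyst was read by RNA-seq. The members were chosen by their sample labels alone, as the LY411575 24 h libraries of embryos 32, 33 and 34 and their DMSO counterparts. The question of the comparison was which transcripts differ after a day without γ-secretase activity.

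The embryos were White Leghorn chickens taken at embryonic day 2.5, and no genetic change is named for these groups. The right otocyst of each was cultured in medium with 10 µM LY411575, and the left in medium with its solvent DMSO, so side and treatment cannot be told apart. The labels of the second and the third treated replicate write the compound with consecutive endings (LY411576, LY411577), and all 3 were taken as the same inhibitor. 1 otocyst made 1 library. Per the labels the otocysts were freed of mesenchyme before culture, and neuroblasts and any cells left behind share its RNA. Tests against DMSO were made within embryos. The 6 h libraries, 3 right otocysts with LY411575 and 3 left ones with DMSO from embryos 1, 3 and 5, show where the 24 h response differed. Like the other libraries of the series, they also enter the estimate of spread behind the 24 h tests. Those others are right otocysts electroporated in ovo and their left counterparts, labelled day 2.5 or 3, which were not cultured. They received the NOTCH1 intracellular domain (NICD1, 6 h or 24 h) or the control protein mRFP1 (24 h).

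Notch receptors bind ligands such as DLL1 and JAG1 on a neighbouring cell and are then cut inside the membrane by γ-secretase. The freed intracellular domain joins RBPJ in the nucleus and switches on genes of the HES and HEY families, whose repressor proteins hold back neuronal differentiation. In the otocyst, Notch signalling between neighbours limits how many cells become neuroblasts of the cochleovestibular ganglion and takes part in setting aside the sensory patches. γ-Secretase also cuts membrane proteins other than Notch.

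Estimated counts summed to between 9988756 and 18224622 per library, with embryo 34 the lowest of each group. Between 19055 and 21176 transcripts had a count of 1 or more in LY411575 libraries, and between 20706 and 21282 in DMSO libraries. Mean fragment length was 232.3, 204.8 and 243.2 bases in LY411575 libraries of embryos 32, 33 and 34, against 201.2, 219.5 and 199.3 bases in DMSO libraries. Embryos 32 and 34 therefore had longer fragments on the LY411575 side, and embryo 33 had not. None of the 25 marker transcripts of otic epithelium, periotic mesenchyme or neurons was called, and none was at 0 in all 6 libraries. Summed otic markers read 277, 261 and 604 TPM, an abundance scaled for transcript length and depth, with LY411575, against 455, 572 and 367 TPM with DMSO. Summed mesenchyme markers (7 of 10 with a named transcript) read 190, 246 and 254 TPM, against 289, 288 and 321 TPM. Summed neuronal markers read 1386, 1318 and 1293 TPM, against 1067, 981 and 1471 TPM. Of these sums, only those of the mesenchyme markers did not overlap between the groups. 4 of the 7 mesenchyme transcripts were lower in all 3 pairs and 1, SCX, was higher in all 3. Among all transcripts with a gene name, 30.4% were lower and 22.0% higher in all 3 pairs.

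Of 21637 transcripts tested, 736 were called changed at an adjusted p below 0.05, which is 3.4% of those tested. 335 rose (1.55%) and 401 fell (1.85%), and 3813 (17.6%) had an unadjusted p below 0.05. A call here comes from edgeR's quasi-likelihood test on all 30 libraries with a term for each embryo, adjusted by Benjamini-Hochberg over all transcripts, and every adjusted p given below is from that test unless another is named. The calls rest on the spread shared by the 30 libraries. The same test made 0 calls when fitted on the 12 cultured libraries alone (3108 at an unadjusted p below 0.05) or on the 6 libraries alone (1357), while DESeq2 on all 30 made 2665. The split between directions moved with the scaling, from 45.5% of calls rising to 58.1% with each library's trend with transcript length removed, 64.8% in limma-voom and 24.3% on log2(TPM + 0.5).

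The 3 pairs did not respond by equal amounts. 730 of the 736 called transcripts had the same direction in all 3 pairs, against 6351 of all tested (29.4%). The calls were made on these same pairs, so this agreement largely follows from the calling. Among transcripts that fell, the median pair difference on the log2 scale was -1.1 in embryo 32, -0.661 in embryo 33 and -1.09 in embryo 34. Among those that rose it was 0.698, 0.449 and 0.686. Embryo 33 showed the smallest median in both sets. Without embryo 33 the test made 1780 calls, without embryo 32 it made 106 and without embryo 34 it made 340. Long transcripts moved with the same split of embryos. Among the 5408 longest transcripts (3217 to 25327 bases) the median pair difference over all transcripts, called or not, was -0.146 in embryo 32, 0.00528 in embryo 33 and -0.345 in embryo 34, and 43 transcripts rose while 170 fell. Among the 5413 shortest transcripts (99 to 1529 bases) the medians were 0.0539, -0.0228 and 0.124, with 70 that rose and 55 that fell. The part of length or fragment size in the calls was not tested beyond the fit with the trend removed, which made 828 calls.

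**Figure D1:**
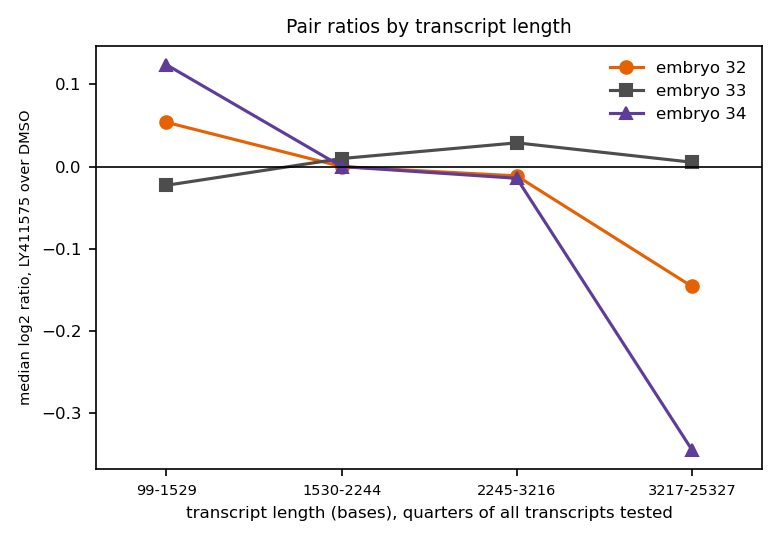
Median log2 ratio of LY411575 over DMSO (y axis) in 4 classes of transcript length of nearly equal size (x axis, in bases), 1 marker per embryo. The longest class lies at -0.146 in embryo 32, 0.00528 in embryo 33 and -0.345 in embryo 34, and the shortest class within 0.124 of 0 in all of them.

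A transcript is said to hold below when it was called, went the same way in all 3 pairs, and was called in that direction in each of the 3 fits that left out 1 embryo. 61 transcripts held, 0.282% of those tested. 10 of them rose and 51 fell, and in 57 of the 61 the LY411575 and DMSO libraries did not overlap in log2 CPM, against 15.2% of all transcripts. 21 of the 61 changed by 2-fold or more in each pair, against 2.1% of all transcripts. The 61 were chosen on these same pairs, so both shares follow in part from the choice and are no separate evidence. Gene names were at hand for 44, of which 9 rose and 35 fell. 40 of the 44 stand in the study's own table of changed genes at 24 h, which was drawn up on these same libraries, so their names and directions are no independent evidence. PFKFB3, DTL, CDCA7 and ORC1 are the 4 outside that table. Without the embryo terms 43 of the 61 were called. Among the named ones not called there were NOTCH1, FADS2, FZD4, PFKFB3, DTL, ORC1, HNRNPDL, SET, NPEPL1, IRS4 and PNRC1.

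The gene lists below hold only transcripts with a name, and names came from the study's tables of changed genes, so a list is to be read against named transcripts as well as against all. Of 850 named transcripts tested, 86 rose (10.1%) and 127 fell (14.9%), while 22.0% were higher and 30.4% lower in all 3 pairs. Most of these calls lay within the study's 24 h table, with 185 of 245 named transcripts called inside it (75.5%) and 28 of 605 outside it (4.63%). A list with many members from that table therefore has many calls by its choice.

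HES5, a repressor that keeps progenitors undifferentiated and a classic readout of Notch activity, held with the largest fall among the named transcripts that kept reads in both groups. It had 0.883, 0.363 and 0.6 TPM in LY411575 otocysts of embryos 32, 33 and 34, against 13.7, 17.2 and 8.39 TPM in DMSO otocysts (log2 fold change -4.30 ± 0.64 SE, adjusted p = 0.00804). HES5.3, a chicken paralog, also held, with 1.35, 1.25 and 0.73 TPM, against 16.5, 24.7 and 8.24 TPM (-3.77 ± 0.49, adjusted p = 0.00485). HES5.2 fell with 0.452, 1.19 and 0.368 TPM, against 10.2, 10.2 and 3.91 TPM (-3.58 ± 0.54, adjusted p = 0.00804). Every LY411575 library lay below every DMSO library for each of these paralogs. HES5.2 was not called without embryo 32 (adjusted p = 0.0642). HES4, a related repressor, fell less, with 7.83, 10.4 and 9.51 TPM, against 19.4, 18.9 and 24.8 TPM (-1.07 ± 0.20, adjusted p = 0.0189). It was not called without embryo 32 (0.111) or 34 (0.072), or without the embryo terms (0.168). These libraries are whole otocysts, in which fewer cells that express a gene and less of its RNA per cell cannot be told apart, and reads of near-identical HES5 paralogs can be shared out among them.

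The other members of the family were not called. HES1, the effector expressed most widely among tissues, had 12, 9.91 and 17.6 TPM with LY411575, against 15.8, 15.9 and 24.7 TPM with DMSO (-0.43 ± 0.32, adjusted p = 0.564). HEY1, which acts downstream of JAG1 in the otic epithelium, had 9.62, 6.4 and 9.76 TPM, against 7.18, 11.7 and 14.5 TPM (-0.24 ± 0.56, adjusted p = 0.911). HEY2 had 4.49, 1.93 and 2.58 TPM, against 5.81, 5.84 and 2.75 TPM (-0.59 ± 0.36, adjusted p = 0.451). In each of these the groups overlapped. In all, 4 of 7 HES and HEY transcripts fell (14.9% of named ones did) and 0 rose. The list's median log2 fold change was -1.07, beside -0.0262 over all transcripts tested. All 4 stand in the study's 24 h table. Limma-voom called none of the 4, with adjusted p-values between 0.0624 and 0.159.

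**Figure D2:**
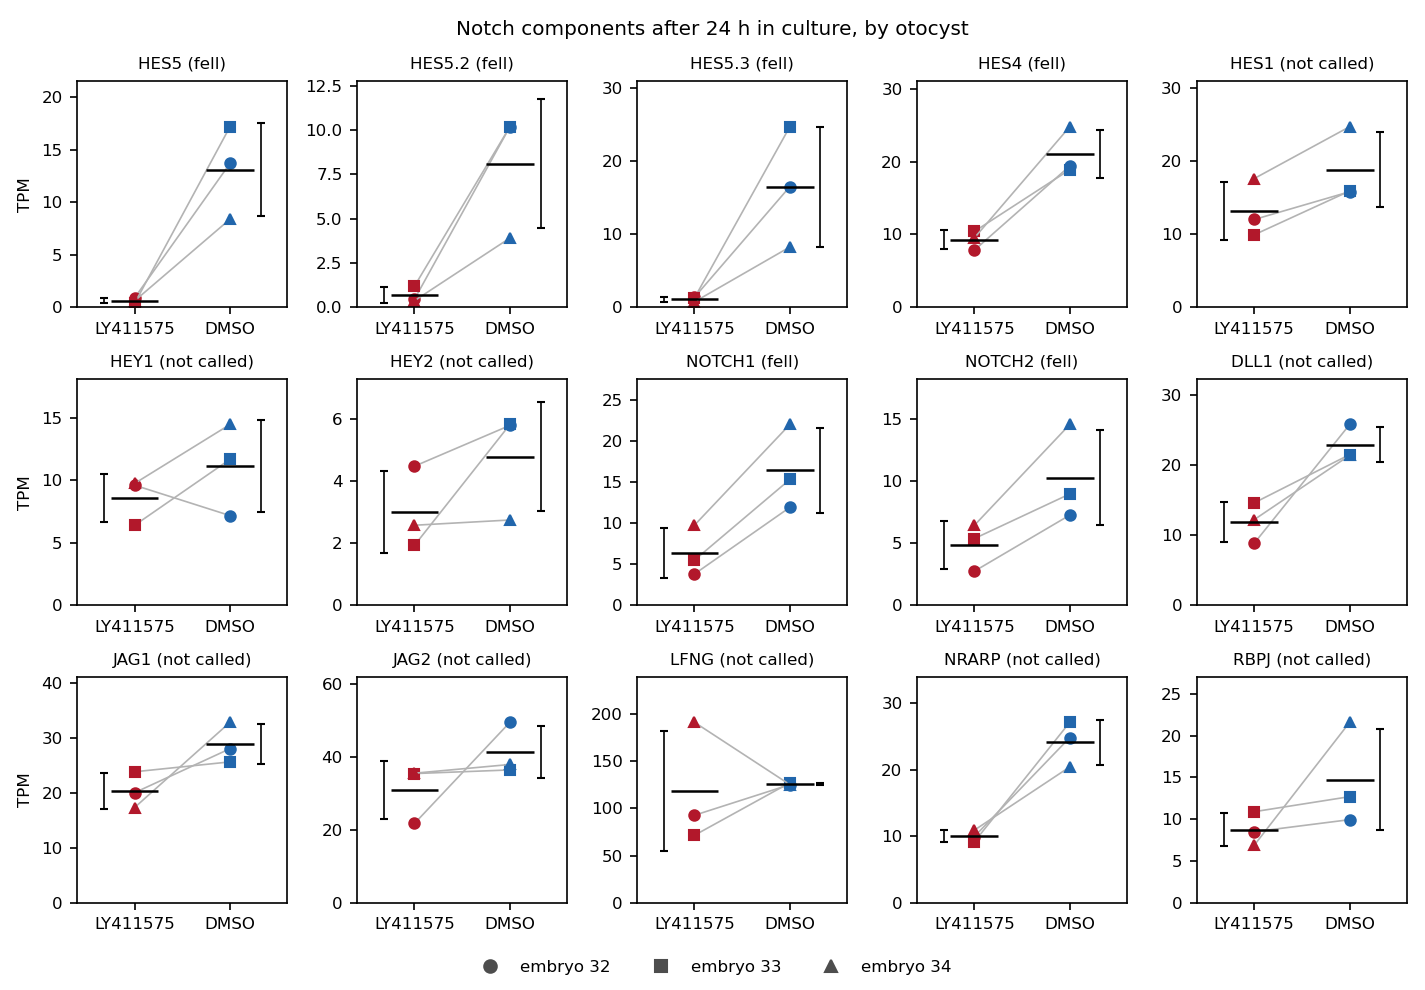
TPM (y axis, linear from 0) of Notch effectors, receptors, ligands and modulators in the 3 LY411575 and the 3 DMSO otocysts at 24 h, 1 point per otocyst, with thin lines joining the otocysts of an embryo, bars for means and error bars for the SD. HES5, HES5.2 and HES5.3 reach at most 1.35 TPM in LY411575 otocysts and at least 3.91 TPM in DMSO otocysts, while HEY1 and HEY2 overlap.

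Of the receptors, NOTCH1 held. It had 3.77, 5.46 and 9.72 TPM with LY411575, against 11.9, 15.3 and 22 TPM with DMSO (-1.31 ± 0.18, adjusted p = 0.00612), and the highest LY411575 library lay below the lowest DMSO library. The call was lost with the length trend removed (adjusted p = 0.0707) and without the embryo terms (0.0752). NOTCH2 had 2.73, 5.37 and 6.44 TPM, against 7.27, 8.98 and 14.6 TPM (-0.98 ± 0.22, adjusted p = 0.0319). It too fell without overlap, but the call was lost without embryo 32 (0.201) or 34 (0.109), with the length trend removed (0.226) and without the embryo terms (0.18).

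Among the ligands, DLL1, which delivers the signal in lateral inhibition of neuroblasts, had 8.83, 14.6 and 12.2 TPM with LY411575, against 25.8, 21.5 and 21.4 TPM with DMSO. The groups did not overlap, but the difference was not called (-0.85 ± 0.24, adjusted p = 0.0723). JAG1, the ligand of the sensory patches, had 20, 23.8 and 17.3 TPM, against 28, 25.6 and 32.8 TPM (-0.38 ± 0.21, adjusted p = 0.387). JAG2 had 21.8, 35.5 and 35.6 TPM, against 49.6, 36.5 and 38 TPM (-0.31 ± 0.26, adjusted p = 0.61). For JAG2 only the pair of embryo 32 showed a difference of any size.

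NRARP, a feedback inhibitor that binds the NICD and RBPJ complex, had 9.94, 9.15 and 10.9 TPM with LY411575, against 24.8, 27.1 and 20.4 TPM with DMSO, without overlap and without a call (-1.20 ± 0.45, adjusted p = 0.175). RBPJ, the DNA-binding partner of NICD, had 8.5, 10.9 and 6.89 TPM, against 9.95, 12.7 and 21.6 TPM (-0.56 ± 0.33, adjusted p = 0.422). LFNG, a glycosyltransferase that tunes which ligand a receptor answers, had 92.6, 71.4 and 191 TPM, against 125, 127 and 125 TPM (-0.10 ± 0.32, adjusted p = 0.95). LFNG went down in 2 pairs and up in that of embryo 34. 2 of the 8 receptors, ligands and modulators fell (14.9% of named transcripts did) and 0 rose, with a median of -0.706. Both that fell stand in the study's 24 h table.

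Of 24 transcripts tied to neuronal differentiation, 6 rose (1.55% of all transcripts tested and 10.1% of named ones did), 0 fell and none held. 15 were higher in all 3 pairs, against 14.0% of all transcripts and 22.0% of named ones. The list's median was 0.646. EBF3, a transcription factor of migrating and differentiating neurons, rose in 2 isoforms. The larger change was in the isoform with 333, 121 and 394 TPM in LY411575 otocysts, against 60.6, 61.1 and 77.4 TPM in DMSO otocysts (2.06 ± 0.30, adjusted p = 0.00759). TUBB2B, a β-tubulin of young neurons, had 3102, 2465 and 2800 TPM, against 1577, 1313 and 1712 TPM (0.98 ± 0.18, adjusted p = 0.0141). In both the groups were apart in all libraries, with embryo 33 the lowest of the LY411575 values.

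DPYSL2, which binds tubulin in growing axons, had 612, 670 and 671 TPM with LY411575, against 367, 429 and 594 TPM with DMSO (0.64 ± 0.13, adjusted p = 0.0216). STMN1, a microtubule-destabilising protein abundant in neural precursors, rose in 2 of its 4 isoforms. The more abundant of them had 20143, 14398 and 16658 TPM, against 10614, 10512 and 12416 TPM (0.69 ± 0.14, adjusted p = 0.022). NEUROD1, a proneural transcription factor of otic neuroblasts, was not called (-0.05 ± 0.50, adjusted p = 1), with 120, 211 and 210 TPM, against 217, 230 and 149 TPM. Without embryo 32 no transcript of this list was called, and without embryo 33 or 34 it was 5 each. 12 of the 24 stand in the study's 24 h table, among them all 6 that rose, and 0 of the 12 outside it were called, so the count is no independent evidence.

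TCF12, an E protein that pairs with proneural factors on DNA, was the only called transcript of 6 other helix-loop-helix factors. It had 1104, 995 and 1270 TPM with LY411575, against 736, 596 and 1100 TPM with DMSO (0.63 ± 0.11, adjusted p = 0.0116), and was not called without embryo 32 (0.111). The groups overlapped in TPM although each pair went up. Of 15 otic patterning factors, GLI3 alone was called. Among named transcripts 10.1% rose and 14.9% fell. TCF12 and GLI3 are the only members of their lists in the study's 24 h table, so neither count is independent evidence. This mediator of Hedgehog signalling fell, with 7.97, 9.92 and 11.2 TPM, against 23, 21.3 and 17.3 TPM (-0.97 ± 0.18, adjusted p = 0.0168), and was not called without embryo 32 (0.131) or with the length trend removed (0.0578).

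None of 14 secreted signals of the otocyst was called. All 14 lie outside the study's 24 h table, where 4.63% of named transcripts were called, so a count of 0 is near that share. FGF10, a growth factor of the neurosensory domain, came closest, with 1.33, 9.36 and 4.16 TPM with LY411575, against 11.8, 17.1 and 8.78 TPM with DMSO (-1.49 ± 0.39, adjusted p = 0.0597). FGF20, a growth factor needed for the sensory epithelium in mouse, was near the detection limit, with 0, 0.402 and 0 TPM, against 0.308, 1.21 and 0.323 TPM (adjusted p = 0.133). For both growth factors the highest LY411575 library lay above the lowest DMSO library.

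Of 20 transcripts of DNA replication and S phase 6 held, the most of any list, beside 44 of the 850 named transcripts. The lists differ in size, and 2 of 7 HES and HEY transcripts and 2 of 7 of DNA damage and repair held. 10 of 20 S phase transcripts fell (14.9% of named transcripts did), 0 rose, and the median of the list was -0.539. 15 were lower in all 3 pairs, against 15.3% of all transcripts and 30.4% of named ones. MCM3, a subunit of the replicative helicase, had 2.67, 2.18 and 2.07 TPM with LY411575, against 10, 16.2 and 17.6 TPM with DMSO (-2.49 ± 0.23, adjusted p = 0.000931). RRM2, which makes deoxyribonucleotides, had 34.9, 69.1 and 30.5 TPM, against 102, 126 and 106 TPM (-1.28 ± 0.15, adjusted p = 0.0031). Both held, with every LY411575 otocyst below every DMSO otocyst. The transcripts named for other subunits of the helicase did not fall as that of MCM3 did. Each is a single isoform, and other isoforms of these genes were not compared. MCM4 (-0.09 ± 0.12, adjusted p = 0.786) and MCM6 (-0.11 ± 0.09, adjusted p = 0.616) were not called. MCM2 fell by less (-0.48 ± 0.11, adjusted p = 0.0372).

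DSCC1, part of a clamp loader for sister chromatid cohesion, had 20, 21.4 and 15.4 TPM with LY411575, against 33.7, 46.3 and 31.6 TPM with DMSO (-0.85 ± 0.12, adjusted p = 0.00687). ORC1, which marks replication origins, had 5.89, 9.65 and 6.79 TPM, against 10.8, 16 and 14 TPM (-0.76 ± 0.10, adjusted p = 0.00408). DTL, which targets the licensing factor CDT1 for destruction, had 0.803, 4.34 and 6.51 TPM, against 9.24, 11.9 and 11.9 TPM (-1.71 ± 0.34, adjusted p = 0.0224). These held too, as did CDK6, a G1 kinase (-1.09 ± 0.17, adjusted p = 0.00819), whose call was lost with the length trend removed (0.0757). GINS1, MCM2, TICRR and UHRF1 fell by between 0.48 and 0.78 on the log2 scale, and none of these was called without embryo 32 (adjusted p between 0.0606 and 0.252). MCM2, TICRR and UHRF1 were also not called with the length trend removed (0.193, 0.197 and 0.0951), a fit in which 6 of the list fell. 6 of the 20 stand in the study's 24 h table and were called, and of the 14 outside it 4 fell. Without embryo 32, 33 or 34, 6, 11 and 8 of the list fell.

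3 of 9 mitotic transcripts fell (33.3%, beside 14.9% of named transcripts) and 0 rose, with a median of -0.465. 2 of the 3 stand in the study's 24 h table. NCAPG, a condensin subunit, held, with 8.09, 16.5 and 10.5 TPM with LY411575, against 27, 34.5 and 18.6 TPM with DMSO (-1.09 ± 0.14, adjusted p = 0.00408). CCNB1, a cyclin of mitotic entry that the study's table pairs with human CCNB2, had 64.7, 133 and 82.8 TPM, against 166, 189 and 156 TPM (-0.82 ± 0.16, adjusted p = 0.0192). KIF15, a spindle motor, had 4.62, 9.2 and 5.3 TPM, against 11.1, 12.4 and 10.8 TPM (-0.78 ± 0.13, adjusted p = 0.0111). Without embryo 32, NCAPG alone remained called.

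Histone H4 (H4-16) held with 50.2, 112 and 102 TPM with LY411575, against 188, 318 and 225 TPM with DMSO (-1.45 ± 0.17, adjusted p = 0.0031). Histone H4 genes have near-identical copies, so its reads can be shared with others. Of 7 DNA damage kinases and repair factors, 3 fell (14.9% of named transcripts did) and 0 rose, with a median of -0.131. 3 others (CDKN1A, CHEK2 and PLK3) were higher in all 3 pairs without a call. ATR, the kinase of the replication checkpoint, held with 0.921, 1.64 and 0.53 TPM, against 4.59, 3.88 and 2.98 TPM (-1.85 ± 0.25, adjusted p = 0.00612). BRCA1, a factor of homologous recombination, held with 1.43, 5.41 and 2.45 TPM, against 8.38, 10.1 and 8.45 TPM (-1.59 ± 0.22, adjusted p = 0.00612). ATM, the kinase of the double-strand break response, fell with 1.44, 2.74 and 1.42 TPM, against 3.59, 4.19 and 5.2 TPM (-1.13 ± 0.19, adjusted p = 0.0118), and was not called without embryo 32 (0.0793). All 3 stand in the study's 24 h table, and the groups were apart in each.

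**Figure D3:**
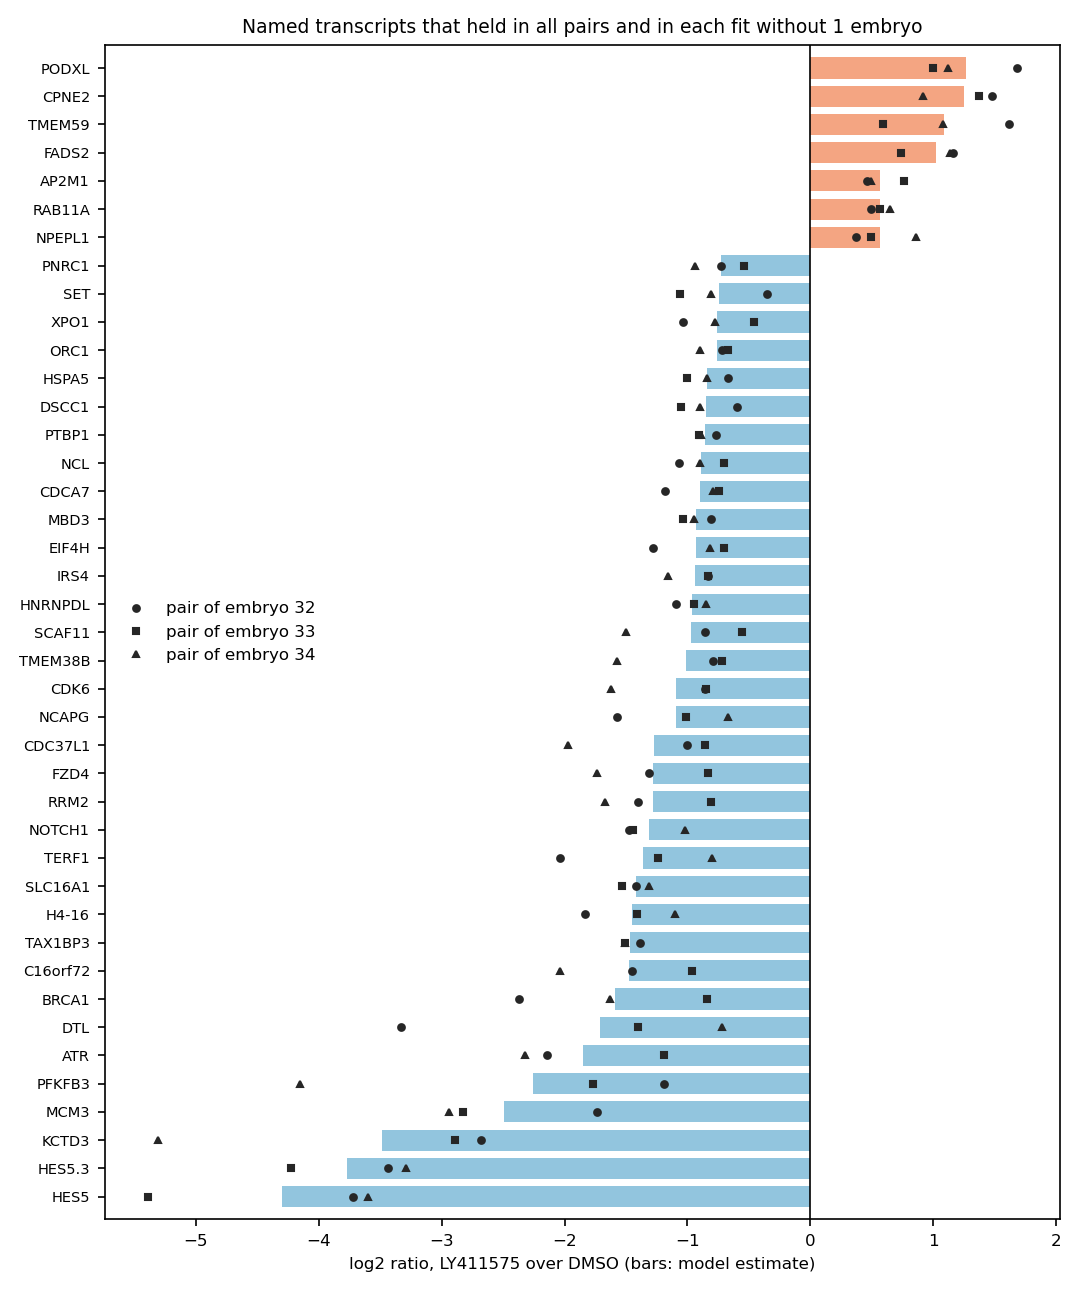
Log2 ratio of LY411575 over DMSO (x axis) for named transcripts that held, with a bar for the model estimate and 1 marker for each of the 3 embryos. ZFYVE26 is left out because its count was 0 in all LY411575 libraries. PODXL is the highest at 1.27 and HES5 the lowest at -4.30, and markers and bars have the same sign throughout.

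Ribosomal and translation transcripts were lower in every pair. 11 of 17 fell (14.9% of named transcripts did), 0 rose and 17 were lower in all 3 pairs (30.4% of named ones), with a list median of -0.636. This list consists of names from the study's 24 h table, so its direction is no independent evidence. EIF4H, which stimulates the helicase of translation initiation, was the only member that held, with 47.3, 79.9 and 69.4 TPM with LY411575, against 128, 135 and 136 TPM with DMSO (-0.93 ± 0.13, adjusted p = 0.00612). RPS15A, a protein of the small ribosomal subunit, had 236, 355 and 212 TPM, against 536, 499 and 474 TPM (-0.83 ± 0.15, adjusted p = 0.0166). RPS20, of the same subunit, had 541, 664 and 530 TPM, against 1020, 1035 and 914 TPM (-0.71 ± 0.14, adjusted p = 0.0201). EEF1B2, an exchange factor of elongation, had 153, 229 and 144 TPM, against 352, 319 and 296 TPM (-0.78 ± 0.14, adjusted p = 0.0149). The LY411575 otocyst of embryo 33 was the nearest to DMSO in each. The number that fell was 1 without embryo 32, 15 without embryo 33 and 1 without embryo 34.

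RNA-binding proteins of splicing and RNA processing moved likewise. 9 of 14 fell (14.9% of named transcripts did) and 0 rose, with a median of -0.766. 11 of the 14 stand in the study's 24 h table, among them all 9 that fell. 0 of the 3 outside it were called, so the count is no independent evidence. NCL, the nucleolar protein nucleolin, held with 179, 238 and 163 TPM with LY411575, against 421, 400 and 335 TPM with DMSO (-0.89 ± 0.11, adjusted p = 0.00381). PTBP1, a splicing repressor whose loss accompanies neuronal differentiation, held with 26.4, 31.2 and 25.5 TPM, against 50.6, 60.9 and 52.7 TPM (-0.86 ± 0.13, adjusted p = 0.00804). HNRNPDL held in its more abundant isoform, with 48.8, 63.2 and 37.2 TPM, against 114, 127 and 72.8 TPM (-0.96 ± 0.14, adjusted p = 0.00803). In these 3 the groups were apart.

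Another HNRNPDL isoform had 0 counts in the 3 LY411575 libraries and 12.2, 9.84 and 18.7 TPM in DMSO libraries. It was at least 186-fold lower against a floor of 3 counts over the group, and was not called without embryo 32 (adjusted p = 0.0753). HNRNPA2B1, an abundant nuclear RNA-binding protein, had 214, 306 and 145 TPM with LY411575, against 510, 517 and 471 TPM with DMSO (-1.12 ± 0.19, adjusted p = 0.0105). It was not called without embryo 32 (0.0696) or 34 (0.054). Without embryo 32, 33 or 34, 3, 7 and 4 of the list fell.

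The list of extracellular matrix transcripts had 9 of 22 that fell, 0 that rose and a median of -0.73, and none held. Beside this, 1.85% of all transcripts tested and 14.9% of named ones fell. HAS2, which makes hyaluronan, had 2.28, 5.42 and 6.3 TPM with LY411575, against 10.3, 9.87 and 24.4 TPM with DMSO (-1.53 ± 0.24, adjusted p = 0.00847). FSTL1, a secreted BMP antagonist, had 5.57, 10.3 and 10.9 TPM, against 19.2, 29.1 and 27 TPM (-1.40 ± 0.23, adjusted p = 0.00968). COL4A6, a basement membrane collagen, had 8.74, 19.7 and 17.6 TPM, against 25.3, 33.1 and 40.9 TPM (-1.04 ± 0.17, adjusted p = 0.00968). LAMA1, a laminin chain of early basement membranes, also fell (-0.72 ± 0.14, adjusted p = 0.0192), but was not called with the length trend removed (0.434). Without embryo 32 none of the list was called, and with the length trend removed 3 were. The summed mesenchyme markers were lower in all LY411575 libraries as well, as given above, but COL1A2 and COL5A2 count in both that sum and this list. The marker SCX went the other way, and the part of mesenchyme in these changes was not tested. 10 of the 22 stand in the study's 24 h table, of which 8 were called, while 1 of the 12 outside it fell. The count is thus largely no independent evidence.

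Of 5 transcripts of the YAP and TEAD pathway, which couples tissue tension and size to growth, 3 fell and 0 rose, with a median of -0.87. Among named transcripts 14.9% fell. YAP1, the coactivator itself, had 11, 15.7 and 12.8 TPM with LY411575, against 25.5, 35.4 and 34.4 TPM with DMSO (-1.15 ± 0.19, adjusted p = 0.0102). TEAD1, its DNA-binding partner, had 3.69, 7.2 and 4.31 TPM, against 13.5, 13.1 and 19.6 TPM (-1.51 ± 0.23, adjusted p = 0.00804). VGLL4, which competes with YAP1 for TEAD proteins, had 24.1, 46.5 and 46.6 TPM, against 67.7, 69.3 and 87.4 TPM (-0.87 ± 0.14, adjusted p = 0.00968). Activator, partner and competitor were thus all lower, without overlap. Each missed the threshold without embryo 32, at adjusted p-values of 0.0574, 0.0639 and 0.0639, and all 3 stand in the study's 24 h table. 0 of the 2 members outside it were called. CYR61, 1 of them, stood at 0.07 ± 0.51 (adjusted p = 0.999), and its pairs went both ways.

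Among 15 Wnt pathway components, 1 rose (10.1% of named transcripts did) and 3 fell (14.9% did), with a median of -0.353. 3 of these calls stand in the study's 24 h table, and AXIN2 is the only one outside it. FZD4, a receptor of Wnt and Norrin ligands, held with 1.6, 3.17 and 1.37 TPM with LY411575, against 4.47, 5.88 and 5.12 TPM with DMSO (-1.28 ± 0.18, adjusted p = 0.00612). CTNNB1, β-catenin, had 245, 323 and 258 TPM, against 443, 404 and 410 TPM (-0.49 ± 0.09, adjusted p = 0.0133). AXIN2, a feedback target of canonical Wnt signalling, had 3.83, 2.93 and 4.94 TPM, against 5.93, 11.1 and 12.3 TPM (-1.17 ± 0.27, adjusted p = 0.0366). In contrast FZD3, a receptor of planar polarity and axon guidance, rose, with 98.9, 99.8 and 88.9 TPM, against 43.2, 54 and 65.8 TPM (0.96 ± 0.24, adjusted p = 0.0492). CTNNB1 and FZD3 were not called without embryo 32 (0.111 and 0.322), and FZD3 was not called without any of the 3 embryos. AXIN2 was not called without embryo 33 (0.11) or 34 (0.113), with the length trend removed (0.0543) or without the embryo terms (0.239). FZD4 was not called without the embryo terms (0.0801).

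TAX1BP3, a PDZ protein that binds β-catenin, held with 87.9, 86 and 65.4 TPM with LY411575, against 256, 256 and 204 TPM with DMSO (-1.47 ± 0.20, adjusted p = 0.00612). KCTD3, a potassium channel tetramerisation domain protein, held with 1.15, 2.4 and 0.446 TPM, against 8.41, 18.7 and 20.5 TPM (-3.49 ± 0.42, adjusted p = 0.0031). CDC37L1, an HSP90 co-chaperone, held with 9.1, 12.2 and 7.45 TPM, against 20.2, 23.2 and 32 TPM (-1.27 ± 0.20, adjusted p = 0.00948). C16orf72, which works with the ubiquitin ligase HUWE1, held with 12.1, 19.4 and 13.6 TPM, against 36.7, 39.4 and 61.4 TPM (-1.48 ± 0.17, adjusted p = 0.0031). None of these 4 overlapped between the groups.

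The remaining named transcripts that held and fell were smaller changes or low transcripts. TERF1, which coats telomeres, fell by 1.36 on the log2 scale, MBD3, a subunit of the NuRD chromatin complex, by 0.93, XPO1, the nuclear export receptor, by 0.76, and CDCA7, a factor of DNA methylation, by 0.9. Among the others were IRS4, PNRC1, SCAF11, SET and TMEM38B, whose log2 fold changes lay between -1.01 and -0.73. ZFYVE26, a protein of lysosome reformation, had counts of 0 in the 3 LY411575 libraries and of 141, 83 and 156 in DMSO libraries. It was at least 116-fold lower against a floor of 3 counts over the group. The deposited estimates are for this isoform, and other isoforms of the gene were not compared. The calls of XPO1, IRS4 and SET were lost with the length trend removed, at adjusted p-values of 0.233, 0.167 and 0.156.

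SLC16A1, a lactate transporter, held with 14.4, 17.5 and 16.8 TPM with LY411575, against 43.2, 52.6 and 46.3 TPM with DMSO (-1.42 ± 0.14, adjusted p = 0.000931). PFKFB3, an activator of glycolytic flux, held with 2.49, 1.92 and 0.796 TPM, against 6.43, 6.87 and 15.9 TPM (-2.26 ± 0.44, adjusted p = 0.02), and was not called without the embryo terms (0.204). The other 9 of 11 glycolysis and hypoxia transcripts were not called, and the median was -0.0412, which turned to 0.0389 with the length trend removed. The share called was 18.2%, beside 25.1% of named transcripts. SLC16A1 is the only member of this list in the study's 24 h table. The only 2 mitochondrially encoded transcripts in the lists, ND3 and ND5 of respiratory complex I, fell, and the other mitochondrially encoded ones were not examined. ND3 had 1122, 2218 and 1028 TPM, against 2692, 3095 and 2863 TPM (-0.99 ± 0.20, adjusted p = 0.0228). ND5 had 234, 321 and 161 TPM, against 471, 446 and 440 TPM (-0.86 ± 0.17, adjusted p = 0.0192). Both are names from the study's 24 h table, their groups were apart, and neither was called without embryo 32 or 34.

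**Figure D4:**
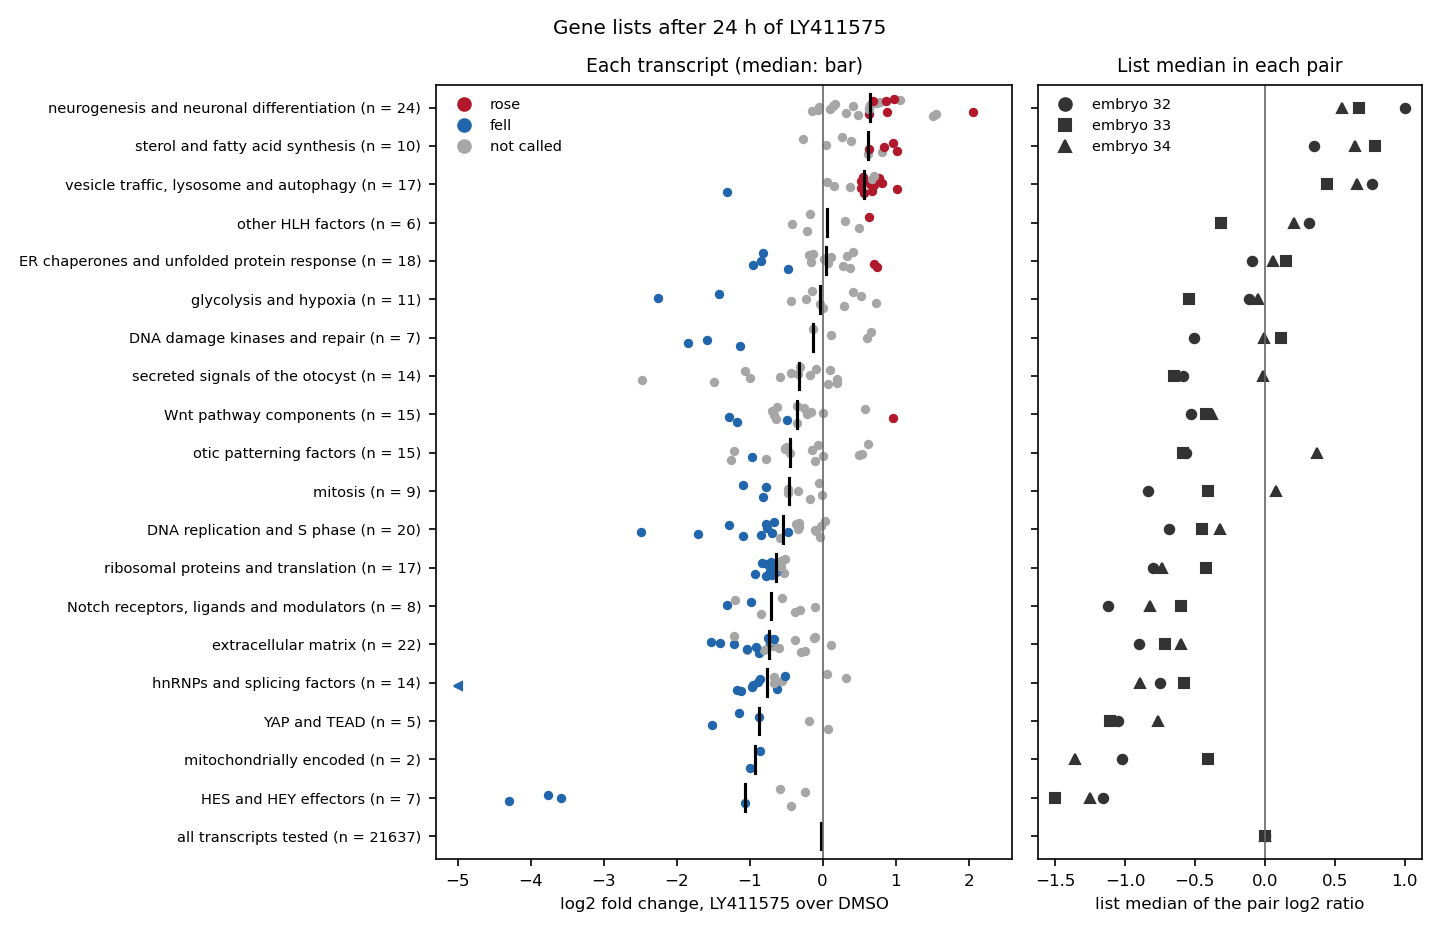
Log2 fold change of each transcript of 19 gene lists (left, bar at the median, an arrow marks a value beyond the axis) and the median log2 ratio of each list in each embryo (right), LY411575 over DMSO. The medians of the neurogenesis, sterol and vesicle lists lie at 0.646, 0.627 and 0.567, and that of the HES and HEY effectors at -1.07.

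The named transcripts that rose and held had varied functions. PODXL, podocalyxin, an apical membrane sialomucin, had 30, 20.8 and 28.3 TPM with LY411575, against 10.4, 10.8 and 14.3 TPM with DMSO (1.27 ± 0.17, adjusted p = 0.00491). CPNE2, a calcium-dependent phospholipid-binding copine, had 174, 118 and 130 TPM, against 69.9, 47.7 and 75.7 TPM (1.25 ± 0.16, adjusted p = 0.00391). TMEM59, a membrane protein of the Golgi and endosomes, had 114, 166 and 112 TPM, against 41.6, 114 and 59.1 TPM (1.09 ± 0.16, adjusted p = 0.00687). PODXL and CPNE2 were apart in all libraries. TMEM59 in TPM was not, since the DMSO otocyst of embryo 33 reached the level of the LY411575 otocysts of the other embryos.

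NPEPL1, an aminopeptidase-like protein, had 140, 101 and 162 TPM with LY411575, against 121, 74.9 and 98.5 TPM with DMSO (0.57 ± 0.09, adjusted p = 0.00968). NPEPL1 overlapped between the groups while each pair went up.

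Of 17 transcripts of vesicle traffic, lysosomes and autophagy, 11 rose and 1 fell, with a median of 0.567. Among named transcripts 10.1% rose and 14.9% fell. 14 of the 17 stand in the study's 24 h table, among them the 12 called, and 0 of the 3 outside it were called, so the direction of the list is no independent evidence. AP2M1, a subunit of the clathrin adaptor AP2, held with 181, 189 and 174 TPM with LY411575, against 147, 116 and 137 TPM with DMSO (0.57 ± 0.08, adjusted p = 0.00804). RAB11A, the GTPase of recycling endosomes, held with 293, 304 and 348 TPM, against 234, 213 and 244 TPM (0.57 ± 0.09, adjusted p = 0.00804). ATP6V0D1, a subunit of the proton pump that acidifies lysosomes, had 271, 228 and 302 TPM, against 164, 185 and 192 TPM (0.68 ± 0.11, adjusted p = 0.00968). In all of these the lowest LY411575 otocyst lay above the highest DMSO otocyst.

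MAP1LC3B, a protein of autophagosome membranes, had 376, 341 and 364 TPM with LY411575, against 274, 261 and 282 TPM with DMSO (0.52 ± 0.08, adjusted p = 0.00865). The number of the list that rose was 2 without embryo 32, 11 without embryo 33 and 3 without embryo 34.

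Of 10 transcripts of sterol and fatty acid synthesis, 4 rose (10.1% of named transcripts did) and 0 fell, with a median of 0.627. FADS2, a desaturase of polyunsaturated fatty acids, held with 105, 91 and 147 TPM with LY411575, against 52.5, 56.6 and 73.3 TPM with DMSO (1.02 ± 0.12, adjusted p = 0.0031), and was not called without the embryo terms (0.0803). HSD17B7, an enzyme of cholesterol synthesis, had 110, 185 and 127 TPM, against 74.2, 81.6 and 72.1 TPM (0.97 ± 0.20, adjusted p = 0.0241). FDPS, farnesyl diphosphate synthase, had 753, 819 and 1151 TPM, against 495, 553 and 564 TPM (0.84 ± 0.16, adjusted p = 0.0191). These were apart between the groups. HSD17B7 was called in no fit without 1 embryo (adjusted p between 0.0639 and 0.0917), and FDPS was not called without embryo 32 (0.105) or 34 (0.108).

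FDFT1, squalene synthase, rose in the fit of all 3 pairs (0.64 ± 0.15, adjusted p = 0.0402) and was likewise called in no fit without 1 embryo. Without embryo 32, 33 or 34, 1, 2 and 1 of the list rose. 6 of the 10 stand in the study's 24 h table, among them all 4 that rose.

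The chaperones of the endoplasmic reticulum went both ways at 24 h. 2 of 18 rose and 4 fell, beside 10.1% and 14.9% of named transcripts. The median was 0.0461, which turned to -0.0758 on log2(TPM + 0.5). HSPA5, the chaperone BiP and sensor of unfolded proteins, held as a fall, with 307, 251 and 260 TPM with LY411575, against 544, 523 and 514 TPM with DMSO (-0.84 ± 0.14, adjusted p = 0.0102). TXNDC5, a disulphide isomerase, had 44.1, 52.6 and 54 TPM, against 97.7, 86.4 and 106 TPM (-0.82 ± 0.16, adjusted p = 0.0175). CANX, the lectin chaperone calnexin, had 118, 160 and 130 TPM, against 177, 227 and 216 TPM (-0.48 ± 0.09, adjusted p = 0.0195). DERL3, which retrieves misfolded proteins for degradation, rose, with 33.6, 40.7 and 41.1 TPM, against 23.4, 24.6 and 26 TPM (0.75 ± 0.15, adjusted p = 0.0228). TXNDC5, CANX and DERL3 were not called without embryo 32 (adjusted p between 0.0886 and 0.12). With any single embryo left out, the list had 0, 2 and 0 that rose and 1, 4 and 1 that fell, in the order of embryos 32, 33 and 34.

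The response at 24 h was then set against that at 6 h, in other embryos. At 6 h 17 transcripts were called, 0.0786% of those tested, of which 9 rose (0.0416%) and 8 fell (0.037%). 7 were called at both times in the same direction and 2 in opposite directions. The difference between the responses was called for 24 transcripts (0.111%), 17 of them lower and 7 higher at 24 h than at 6 h, and 18 have a name. 2351 had an unadjusted p below 0.05. Without embryo 1, 3 or 5 of the 6 h set, 8, 7 and 8 of the 24 calls remained. The embryos and the time in culture differ together between these sets and cannot be told apart.

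HSPA5 was among the transcripts called at both times in opposite directions. After 6 h it had 1216, 966 and 927 TPM with LY411575, against 243, 228 and 229 TPM with DMSO (2.13 ± 0.14, adjusted p = 5.38e-05), and the 24 h response differed from that at 6 h by -2.97 ± 0.20 (adjusted p = 5.09e-05). HSP90B1, the chaperone GRP94, had 457, 688 and 518 TPM, against 710, 644 and 636 TPM at 24 h, and 967, 816 and 1115 TPM, against 249, 260 and 268 TPM at 6 h. Its responses differed by -2.04 ± 0.19 (adjusted p = 0.000789). DERL3 was higher with LY411575 at both times, by 0.75 at 24 h and 2.05 at 6 h on the log2 scale (difference -1.30 ± 0.22, adjusted p = 0.049). 6 of the 18 chaperone transcripts rose at 6 h, against 0.0416% of all transcripts tested. Their names came from the study's tables of changed genes, so this count is no independent evidence.

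DLL1 rose at 6 h and was not called at 24 h. At 6 h it had 50.3, 45.3 and 59.5 TPM with LY411575, against 13.1, 13.9 and 25.9 TPM with DMSO (1.60 ± 0.24, adjusted p = 0.0246). The 24 h response, given above, differed from it by -2.45 ± 0.34 (adjusted p = 0.0157). 1 isoform of GADD45G, a growth arrest gene of newborn neurons, differed by -1.50 ± 0.20 (adjusted p = 0.0147), having risen at 6 h (1.44 ± 0.14) and not at 24 h (-0.06 ± 0.14, adjusted p = 0.905).

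HES4, HES5, HES5.2 and HES5.3 fell at both times, and HES1 was called at neither. HES5 had 0.204, 0 and 0.0949 TPM with LY411575 at 6 h, against 104, 70.6 and 49.4 TPM with DMSO. HES5.3 had 1.85, 2.37 and 2.89 TPM, against 177, 161 and 115 TPM. HES4 had 25.6, 28.9 and 30.2 TPM, against 80.7, 68.5 and 62.8 TPM. The DMSO otocysts thus held less HES5, HES5.3 and HES4 at 24 h than at 6 h, which was not tested, while LY411575 otocysts were low at both times for the HES5 paralogs. The difference between the responses was not called for any of the 4 HES transcripts that fell (adjusted p between 0.146 and 0.843). HEY1, which had 26.5, 28.6 and 40 TPM, against 253, 231 and 136 TPM at 6 h, was not called at either time (6 h adjusted p = 0.293).

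Transcripts called at 24 h and not at 6 h, with a called difference between the times, were found on both sides. SLC16A1 had 77.8, 90.1 and 75.2 TPM with LY411575 at 6 h, against 81.9, 89.4 and 85.1 TPM with DMSO, and its 24 h response lay lower (difference -1.34 ± 0.19, adjusted p = 0.0206). KCTD3 had 34.4, 37.4 and 24.9 TPM, against 26.2, 43.9 and 26.8 TPM at 6 h (difference -3.50 ± 0.55, adjusted p = 0.0364). PTBP1, NCL, MBD3 and C16orf72 differed likewise, by between -1.44 and -0.95. In the upward direction, CPNE2 had 20.2, 22 and 22.9 TPM, against 25.3, 26.5 and 22.7 TPM at 6 h (difference 1.45 ± 0.22, adjusted p = 0.0351). PODXL had 23.5, 18 and 21.5 TPM, against 35.2, 32.8 and 31.8 TPM at 6 h (difference 1.95 ± 0.24, adjusted p = 0.00644). PODXL thus lay below DMSO in every pair at 6 h, without a call (-0.68 ± 0.17, adjusted p = 0.652), and above it in every pair at 24 h. The paper lists PODXL among the genes changed at both times, in directions that differ.

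**Figure D5:**
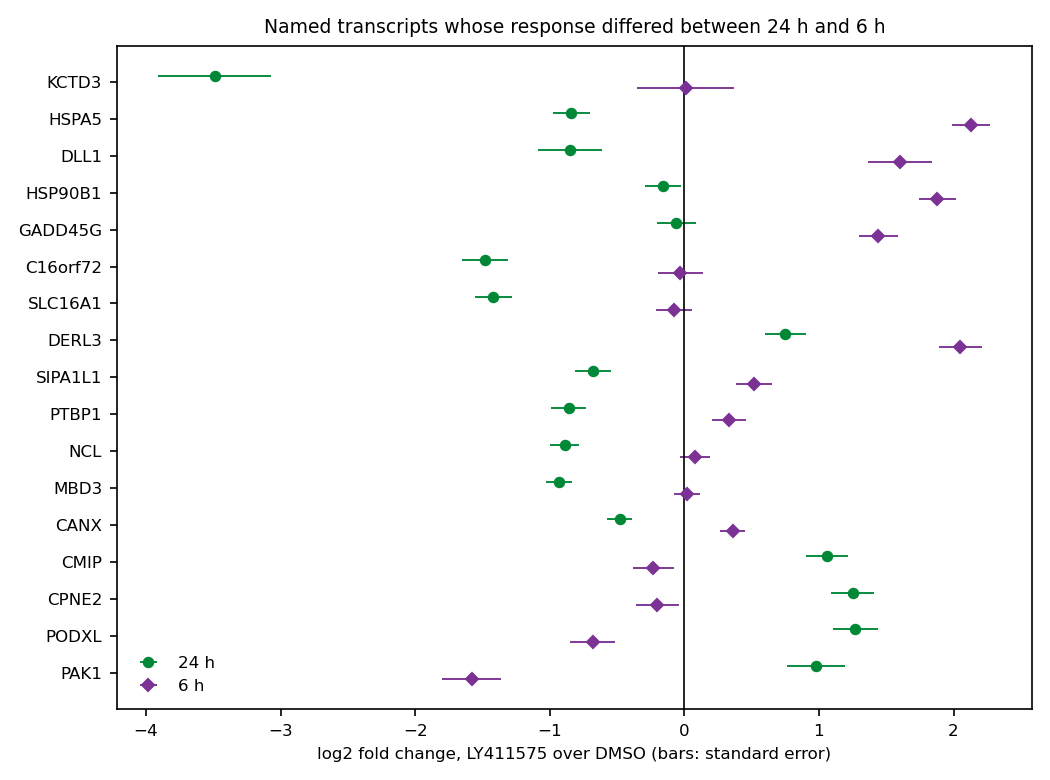
Log2 fold change of LY411575 over DMSO with its standard error (x axis) at 24 h and at 6 h, for 17 of the 18 named transcripts whose responses differed. HSPA5 lies at -0.84 at 24 h and 2.13 at 6 h, DLL1 at -0.85 and 1.60, and PODXL at 1.27 and -0.68.

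CDCA7 was among the few transcripts that held at 24 h and were also called at 6 h in the same direction (-0.90 ± 0.10 at 24 h, -0.70 at 6 h with an adjusted p of 0.0164). HES5 and HES5.3 are the others. Of the 61 transcripts that held, 3 were also called at 6 h in the same direction, 1 in the opposite direction, and 14 had a called difference between the times. A missing call at 6 h does not show that a transcript was unchanged. The 20 S phase transcripts had a median of -0.436 at 6 h and -0.539 at 24 h, with 0 called differences. ORC1 among them stood at -0.52 ± 0.10 at 6 h (adjusted p = 0.124). The 17 ribosomal and translation transcripts had medians of -0.0548 and -0.636.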

How the data were processed

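Total RNA of single otocysts (RNA integrity number of at least 9) was amplified with SMART-Seq v4, made into libraries with Nextera XT and sequenced in paired 43-base reads, per the labels. Because strand is not kept, sense and antisense reads were not separated. Kallisto, bcl2fastq and the build GRCg6a are named in the submitters' processing notes. The kallisto version is not given in the sources used. Per library, the authors deposited estimated counts and TPM for 28756 transcripts. The deposited estimated counts are unnormalised and divide reads among isoforms and paralogs. The deposited TPM are scaled for effective length and depth, and give the levels in the text. 0 columns of other samples were present.

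Estimated counts were rounded, filtered with filterByExpr (minimum count 10) and scaled by TMM. All 30 libraries were fitted with edgeR 4.0.16 in R 4.3.3 (glmQLFit, robust, glmQLFTest) with 15 embryo terms and 5 treatment terms, leaving 10 residual degrees of freedom. The treatment terms were LY411575 at 6 h and at 24 h, NICD1 at 6 h and at 24 h, and mRFP1 at 24 h. P-values were adjusted by Benjamini-Hochberg, with a threshold of 0.05. SE is the log2 fold change over the square root of F. Pair ratios are TMM log2 CPM with a prior count of 0.5. Alternatives included limma 3.58.1 and DESeq2 1.42.0. The embryo is a term because the titles give both otocysts of a pair the same embryo number. Across transcripts, the deviations of the 2 otocysts of an embryo from their groups' means were only weakly correlated, with r of 0.0621, 0.0301 and 0.0839. The highest r with a DMSO otocyst of another embryo was 0.00319, 0.0106 and -0.03. Replicate libraries differed by more than sampling noise (smallest chi-square over its degrees of freedom 22.4).

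Names came from the study's supplementary tables, which pair identifiers with symbols, 850 of which were tested. 12 Notch pathway transcripts were identified by equality of deposited TPM with the study's listing in 6 libraries. The study's own fold changes and p-values were not used. 523 called transcripts have no name here. The members and lists were chosen with earlier results of these data known. Named were all Notch list members, up to 12 holding transcripts per direction with a mean of at least 5 CPM and the largest smallest-pair change, and in each other list up to 4 called transcripts with the smallest p, or 2 where none was called. Results of a few transcripts that the rule or the lists cover are not reported here. Others named in the text were chosen after their values were seen. P-values of the main fit measure differences against the spread shared by all 30 libraries, not against that of the 24 h embryos alone. Nothing says whether the embryos were cultured on separate days, so whether that spread covers separate cultures is not known.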

Additional observations from a re-analysis of the deposited data

Results flagged for a closer look

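18 named transcripts had a response to LY411575 that differed between 24 h and 6 h, by a test of the difference itself in the fit of all 30 libraries (adjusted p below 0.05), and 17 of them are given here. On the log2 scale, as the 24 h response minus that at 6 h, KCTD3 lay at -3.5, HSPA5 at -2.97, DLL1 at -2.45 and HSP90B1 at -2.04. GADD45G lay at -1.5, C16orf72 at -1.44, SLC16A1 at -1.34 and DERL3 at -1.3. SIPA1L1, a regulator of Rap GTPases, lay at -1.21, PTBP1 at -1.18, NCL at -0.97, MBD3 at -0.95 and CANX at -0.85. On the other side CMIP, an adaptor protein, lay at 1.29, CPNE2 at 1.45, PODXL at 1.95 and PAK1, a kinase of cytoskeletal signalling, at 2.55. PAK1 rose at 24 h (0.98, adjusted p = 0.0301) and fell at 6 h (-1.58, adjusted p = 0.0149), and was with HSPA5 the other transcript called at both times in opposite directions. Groups of 3 libraries were not examined for single libraries far from the rest.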

How the results depend on the processing

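The count of 736 called transcripts depended on what was fitted. It was 728 with median-of-ratios size factors, 838 with a minimum count of 30, 589 without a filter, 828 with the length trend removed (481 rose, 347 fell), 798 in limma-voom (517 rose, 281 fell) and 914 on log2(TPM + 0.5) (222 rose, 692 fell, with the median of all transcripts at -0.109). DESeq2 gave 2665, and the fit with no replicate block, which ignores the pairing by embryo, gave 308. The 12 cultured libraries alone gave 0, and the 6 libraries of the 24 h cultures alone gave 0. Leaving out 1 embryo at a time gave between 106 and 1780. An alternative chosen after seeing the data, with embryos 32 and 34 both left out, gave 77. In the fits of 12 and of 6 libraries fewer samples share the estimate of spread. Otherwise the cause was not tested.

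Of the 61 transcripts that held, 0 were called in the 12 cultured libraries alone and 0 in the 6 alone, 43 with no replicate block, 56 with the length trend removed and 58 in limma-voom. The count of 24 differences between 24 h and 6 h was 23 with no replicate block, 1 in the 12 cultured libraries alone, and between 8 and 578 with 1 embryo left out. Near-equal counts did not hold the same transcripts. Of the 24, 11 were called with no replicate block, 12 without embryo 32, 24 without embryo 33 and 17 without embryo 34. Without embryo 1, 3 or 5 of the 6 h set, 8, 7 and 8 of them were called. Of 68 called transcripts chosen by rule, 33 remained called without embryo 32, 64 without embryo 33, 49 without embryo 34 and 44 with no replicate block, and none changed sign. Transcripts that were not called did so in a few fits. With 1 embryo left out, HEY1 stood between -0.66 and 0.04 (above 0 without embryo 33), JAG2 between -0.52 and 0.01 (above 0 without embryo 32) and LFNG between -0.54 and 0.23 (above 0 without embryo 33). LFNG stood at 0.02 with no replicate block and at 0.01 with the length trend removed. Limits of detection at this depth and number of embryos were not measured.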
